A study of Oryza sativa Indica Group with 4 samples.

Results

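The response of *togr1-1* leaf blades to growth at 30 rather than 25 °C was measured in 1 pooled RNA-seq library per temperature, and its members were all transcript models (the gene models, splice variants included, on which reads were counted) with at least 1 read in either library. There were 32357 such models, from 26456 loci, among the 35204 models with a read anywhere in the 4 libraries of the series. The mutant, written tog1 in the labels, arose without mutagenesis in Zhongxian 3037, an *indica* rice variety, is recessive, and stays short when grown warm. Its TOGR1 protein carries valine in place of glycine at residue 47. Wild-type Zhongxian 3037 plants grown at the same 30 and 25 °C gave the other 2 libraries. All seedlings were 22 days old and had spent their last 18 days at 30 or 25 °C under 12 h of light a day, and the blades of the fourth leaves were pooled to 100 mg for each library. In such bulk tissue a lower share of some cells and less RNA per cell cannot be told apart.

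TOGR1 is a DEAD-box RNA helicase, a class of ATP-using enzymes that open short RNA duplexes. It resides in the nucleolus, where the precursor of ribosomal RNA is made and cleaved, and belongs to the machinery that processes the small-subunit part of that precursor. Libraries of messenger RNA do not report on that step, so the values below describe the leaf transcriptome of plants carrying the allele and not ribosomal RNA itself. Warm growth is known to alter the transcripts of plants in many functional classes, among them enzymes that remove reactive oxygen and enzymes that make protective sugars. Both classes are represented below by loci that the study names.

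The *togr1-1* libraries held 12139238 counted reads at 30 °C and 12371522 at 25 °C, against 11959859 (30 °C) and 12217702 (25 °C) in wild-type plants. Reads fell on 29586 models at 30 °C and 29483 at 25 °C in *togr1-1*. Of 28458 loci in the series, 1 matched an entry in the RefSeq gene table, and the deposited tables pair no identifier with a gene name. The genes described by name are therefore that locus and those named by the study, pathways beyond them were not analysed here, and leaf markers were not checked. With 1 library per temperature, each test compares 2 libraries and not the conditions, and there is no replicate check.

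Differentially expressed genes (DEGs) were models whose scaled reads differed at least 2-fold at an adjusted p of at most 0.001 in an exact binomial test on the reads. There were 2241, or 6.93% of those tested. More of them were higher at 30 °C than lower, with 1468 higher (4.54% of the models tested) and 773 lower (2.39%), so that 65.5% of the DEGs rose. The 95% Wilson interval of 63.5 to 67.4% treats the DEGs as independent, although they share the same libraries. With another scaling of the libraries (TMM factors) the share was 58.9%, outside that interval. The median log2 ratio of 30 over 25 °C was 0.03 over all models tested and 0.06 over the 13862 models with at least 100 reads. Counting error alone stands behind these calls. Where the spread between plants was set to an assumed coefficient of variation of 0.2, edgeR's exact test left 286 DEGs, 221 higher and 65 lower. At an assumed 0.4 it left 11, of which 10 were higher.

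**Figure D1:**
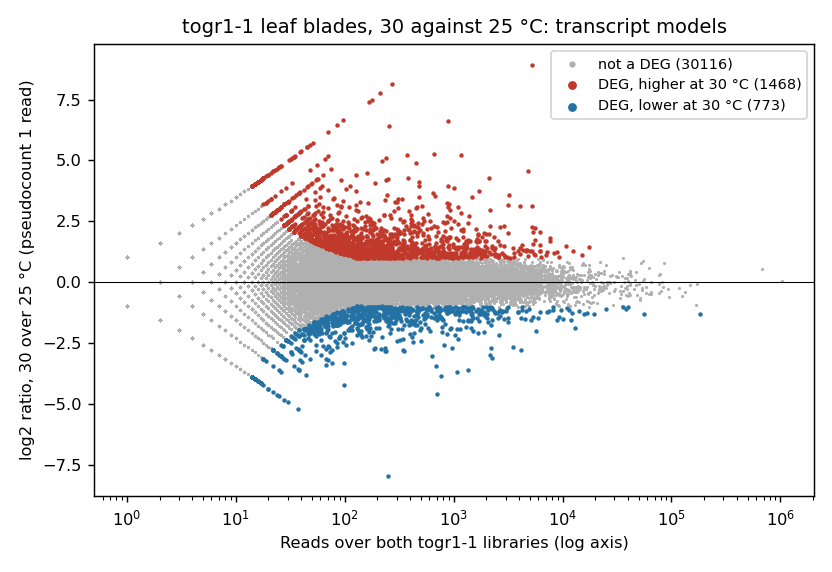
Log2 ratio of 30 over 25 °C (vertical axis, pseudocount of 1 read) against the reads of each transcript model over both *togr1-1* libraries (horizontal axis, log scale), 1 point per model. The 1468 red points are DEGs higher at 30 °C and the 773 blue points DEGs lower at 30 °C; the calls begin at 14 reads, and from 10000 reads on the blue points (16) outnumber the red (4).

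Most DEGs changed by less than 4-fold. Among those that rose, 921 (62.7%) changed between 2- and 4-fold, 310 (21.1%) between 4- and 8-fold and 237 (16.1%) by 8-fold or more. Among those that fell the counts were 561 (72.6%), 130 (16.8%) and 82 (10.6%). The DEGs higher at 30 °C had a median of 5.42 RPKM (reads scaled to transcript length and to the library's total) at 30 °C and 1.66 RPKM at 25 °C. Together they took 4.64% of the reads at 30 °C and 1.58% at 25 °C. The DEGs lower at 30 °C had a median of 2.65 RPKM at 30 °C and 7.42 RPKM at 25 °C, and took 2.21% of the reads at 30 °C against 5.53% at 25 °C.

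The balance of rises and falls turned round among the most abundant transcripts. Of the 284 models with at least 10000 reads over the pair, 4 were DEGs higher at 30 °C (1.41%) and 16 were lower (5.63%), and their median log2 ratio was -0.11. In every class of fewer reads the rises outnumbered the falls. The share of models higher at 30 °C peaked at 100 to 300 reads, with 10.4% higher and 5.14% lower. Below 20 reads only 0.412% of models were called higher and 0.210% lower, since so few reads allow few calls.

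Of the 10 transcripts with most reads at 30 °C, 1 was a DEG. It had 52035 reads at 30 °C and 132215 at 25 °C in *togr1-1* (log2 ratio -1.32), against 68692 at 30 °C and 69314 at 25 °C in the wild type. This transcript, LOC_Os01g10400.1 and ninth in the order, thus fell in the mutant while its wild-type reads were nearly level. Another model of its locus, LOC_Os01g10400.2, had 37117 reads at 30 °C and 39534 at 25 °C in *togr1-1* (log2 ratio -0.06). The fall thus lay mainly in LOC_Os01g10400.1. Since both models had fewer scaled reads at 30 °C, their summed reads were lower there too. The ratio of that sum is not given here. The transcript second in the order of reads at 30 °C moved the other way. It had 404221 reads at 30 °C and 279421 at 25 °C in *togr1-1* (log2 ratio 0.56, under 2-fold), against 233387 at 30 °C and 456238 at 25 °C in the wild type (log2 ratio -0.94). The log2 ratios of the genotypes differed by 1.496 for that transcript, past the threshold of Fisher's exact test described next.

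Whether a response in *togr1-1* differed from that of the wild type was tested on the reads of all 4 libraries with Fisher's exact test, at an adjusted p of at most 0.001 and ratios at least 2-fold apart. Over all 35204 models, the *togr1-1* ratio was above the wild-type ratio in 2.82% and below it in 1.63%. Of the 1468 DEGs that rose in *togr1-1*, 375 (25.5%, Wilson interval 23.4 to 27.8%) rose more than in the wild type by this test. Of the 773 that fell, 149 (19.3%, 16.7 to 22.2%) fell further than in the wild type. In 17 of the rises and in 35 of the falls the difference ran the other way. These shares stand against the 2.82 and 1.63% over all models, many of which had too few reads for a call. The DEGs were also chosen for a high or low ratio in *togr1-1* itself, which raises such a share.

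Many of the DEGs were also DEGs in the wild type. Of the 1468 that rose in *togr1-1*, 451 (30.7%, 28.4 to 33.1%) were wild-type DEGs higher at 30 °C, where 4.27% of all models were, and 73 were wild-type DEGs lower at 30 °C. Of the 773 that fell, 251 (32.5%, 29.3 to 35.9%) were wild-type DEGs lower at 30 °C, where 3.73% of all models were, and 14 were higher. The shares of 4.27 and 3.73% are over all models, many of which had too few reads for a call. The *togr1-1* DEGs had enough reads in *togr1-1*, so those shares can be too low as a background. The median log2 ratio of the rises was 1.64 in *togr1-1* and 0.73 in the wild type, and that of the falls was -1.49 in *togr1-1* and -0.71 in the wild type. These DEGs were chosen for a ratio of at least 2-fold in *togr1-1*, which by itself makes the *togr1-1* medians the larger. The medians therefore do not compare the strength of the responses. The genotypes were not called different for most of these DEGs, which does not show that they responded alike.

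**Figure D2:**
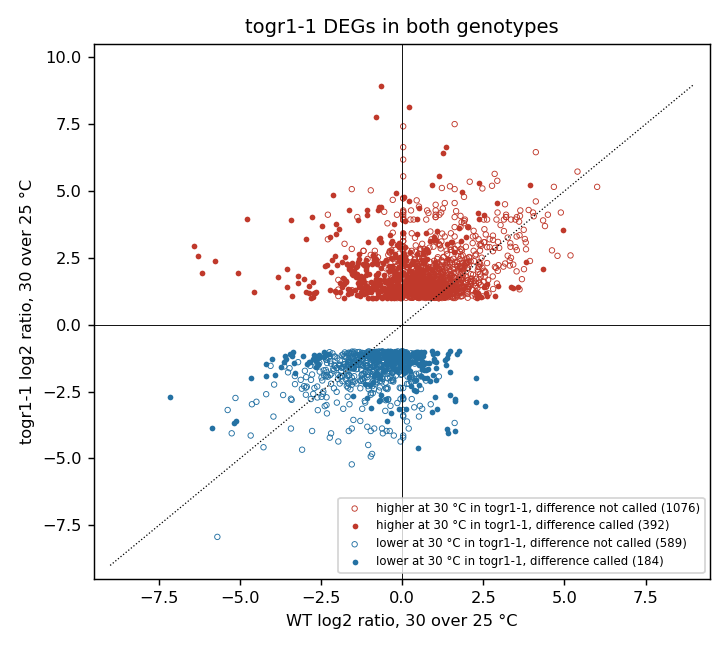
Log2 ratio of 30 over 25 °C in *togr1-1* (vertical axis) against that in the wild type (horizontal axis) for the 2241 *togr1-1* DEGs, red where higher and blue where lower at 30 °C in *togr1-1*. Filled points passed the test of the difference between the ratios and open points did not; the dotted line marks equal ratios, and the isolated point at the top is LOC_Os01g45914.1 at 8.94 in *togr1-1* and -0.66 in the wild type.

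TOGR1 itself (LOC_Os03g46610), the helicase altered in the mutant, gave 156 reads at 30 °C and 127 at 25 °C in *togr1-1*, against 180 at 30 °C and 175 at 25 °C in the wild type. The log2 ratio was 0.32 in *togr1-1*, with a 95% Clopper-Pearson interval of -0.02 to 0.67, and 0.07 in the wild type (-0.24 to 0.38). It was not a DEG (exact binomial test, adjusted p = 0.152 over loci), and the difference between genotypes was not called (Fisher's exact test, adjusted p = 0.63). The allele changes an amino acid, so the amount of its transcript is no check of the genotype labels.

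The APX2 homologue (LOC_Os07g49400) encodes an ascorbate peroxidase, an enzyme that uses ascorbate to remove hydrogen peroxide. It had 164 reads at 30 °C and 336 at 25 °C in *togr1-1*, against 199 at 30 °C and 255 at 25 °C in the wild type. The *togr1-1* library at 25 °C was the highest of the 4 and that at 30 °C the lowest. Its log2 ratio was -1.003 in *togr1-1* (-1.29 to -0.73; exact binomial test, adjusted p = 6.988e-13 over loci), a DEG at the edge of the fold threshold, and -0.33 in the wild type (-0.60 to -0.05), where it was not a DEG. The difference of -0.68 between the genotypes had an adjusted p of 0.0038 in Fisher's exact test and was not called. The reads lay mainly on 1 of its 3 models, LOC_Os07g49400.3, with 142 at 30 °C and 323 at 25 °C in *togr1-1* and 195 at 30 °C and 241 at 25 °C in the wild type. For that model the difference was -0.88 (Fisher's exact test, adjusted p = 0.000168), under 2-fold and so not called either, and its *togr1-1* call was lost under edgeR at an assumed coefficient of variation of 0.2 or 0.4.

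Both GolS2 homologues encode galactinol synthases, which make the galactosyl donor for sugars of the raffinose family. They behaved differently. LOC_Os03g20120 had 279 reads at 30 °C and 615 at 25 °C in *togr1-1*, against 152 at 30 °C and 380 at 25 °C in the wild type. It fell in both genotypes, with log2 ratios of -1.11 in *togr1-1* (-1.32 to -0.91; exact binomial test, adjusted p = 5.795e-27) and -1.29 in the wild type (-1.57 to -1.02), and no difference between them was called (0.18, Fisher's exact test, adjusted p = 0.711). The *togr1-1* call was lost under edgeR's exact test at an assumed coefficient of variation of 0.2 or 0.4. Per length its level was higher in the mutant at both temperatures, with 16.0 RPKM at 30 °C in *togr1-1* against 8.87 RPKM in the wild type, and 34.7 RPKM at 25 °C in *togr1-1* against 21.7 RPKM in the wild type. That comparison between genotypes was not tested.

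The other GolS2 homologue, LOC_Os07g48830, had 95 reads at 30 °C and 110 at 25 °C in *togr1-1*, against 174 at 30 °C and 101 at 25 °C in the wild type. Of the 4 libraries the wild type at 30 °C stood above the others. The log2 ratio over the locus was -0.18 in *togr1-1* (-0.60 to 0.23) and 0.81 in the wild type (0.45 to 1.18), both under 2-fold. The difference of -0.99 fell just short of the call (Fisher's exact test, adjusted p = 0.0022). In its model LOC_Os07g48830.1, with 70 reads at 30 °C and 99 at 25 °C in *togr1-1* and 130 at 30 °C and 74 at 25 °C in the wild type, the difference of -1.30 was called (Fisher's exact test, adjusted p = 0.000279). Its other model, LOC_Os07g48830.2, had 25 reads at 30 °C and 11 at 25 °C in *togr1-1* and 44 at 30 °C and 27 at 25 °C in the wild type, with log2 ratios of 1.14 in *togr1-1* and 0.72 in the wild type, and was not called in any test. OsCCC2 (LOC_Os01g19850), a cation-chloride cotransporter and the locus matched in RefSeq, had 9 reads at 30 °C and 3 at 25 °C in *togr1-1* and 5 at 30 °C and 7 at 25 °C in the wild type, too few for a call.

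**Figure D3:**
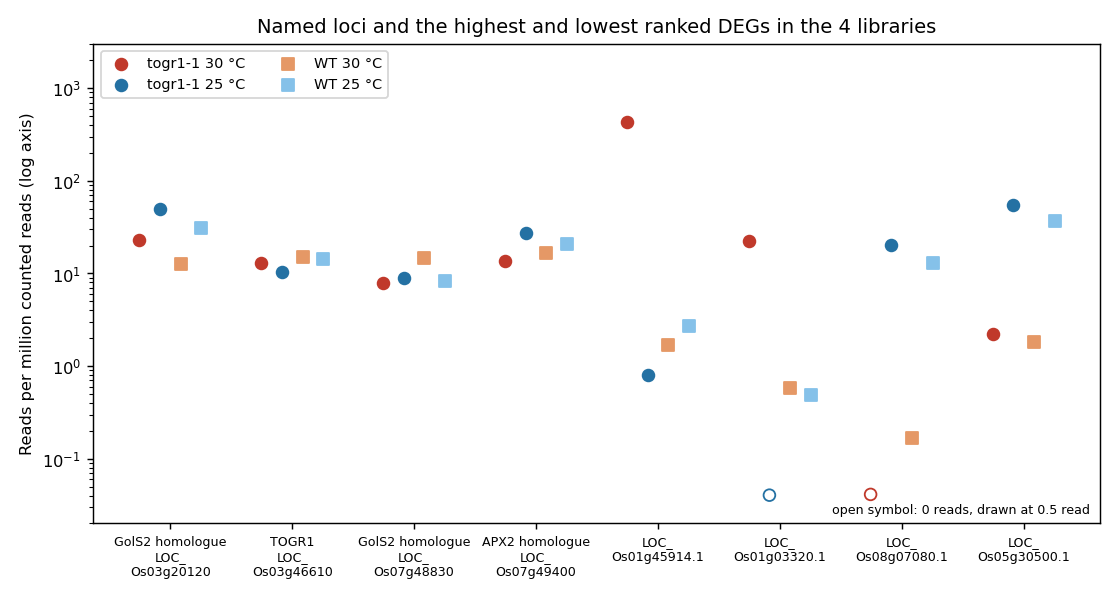
Reads scaled to the library total (vertical axis, log scale) in the 4 libraries for TOGR1, the APX2 and GolS2 homologues (reads of all models of the locus) and the pair of highest and the pair of lowest ranked *togr1-1* DEGs; circles are *togr1-1* and squares the wild type, and open symbols mark 0 reads. LOC_Os01g45914.1 stands apart in *togr1-1* at 30 °C, whereas both DEGs with the lowest ratios are low at 30 °C in both genotypes.

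The largest ratios were ranked among DEGs with 200 or more reads in the pair, of which 604 were higher and 366 lower at 30 °C. LOC_Os01g45914.1, the first, had 5291 reads at 30 °C and 10 at 25 °C in *togr1-1*, against 20 at 30 °C and 33 at 25 °C in the wild type. Of the 4 libraries only that of *togr1-1* at 30 °C was high, at 570.5 RPKM, where it ranked 111 among all models, against 1.06 RPKM at 25 °C. Its scaled reads were 490-fold higher at 30 °C (log2 ratio 8.94, 8.20 to 10.14), and the wild-type log2 ratio was -0.66 (-1.57 to 0.15). LOC_Os01g03320.1 had 275 reads at 30 °C and 0 at 25 °C in *togr1-1*, against 7 at 30 °C and 6 at 25 °C in the wild type. It was at least 93.4-fold higher at 30 °C, taking 3 reads as what a count of 0 in 1 library allows, and with the counting error of both libraries the Clopper-Pearson interval began at a log2 ratio of 6.24. The transcript ranked next had 211 reads at 30 °C and 0 at 25 °C in *togr1-1* and 8 at 30 °C and 15 at 25 °C in the wild type. All 3 were thus high in a single library of the series.

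Among the falls, LOC_Os08g07080.1 had 0 reads at 30 °C and 248 at 25 °C in *togr1-1*, against 2 at 30 °C and 158 at 25 °C in the wild type. It was at least 81.1-fold lower at 30 °C in *togr1-1* against the same 3 reads, and the Clopper-Pearson interval ended at a log2 ratio of -6.03. LOC_Os05g30500.1 had 27 reads at 30 °C and 682 at 25 °C in *togr1-1* (log2 ratio -4.58, -5.24 to -4.08), against 22 at 30 °C and 454 at 25 °C in the wild type (-4.28, -5.03 to -3.72). Both were low at 30 °C in both genotypes, and neither difference between the genotypes was called. LOC_Os05g30500.1 lost its *togr1-1* call under edgeR at an assumed coefficient of variation of 0.4.

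The 12 highest and the 12 lowest ranked DEGs were chosen by their *togr1-1* ratios, and their values are given as a description. For the 12 highest the median log2 ratio was 5.26 in *togr1-1* and 1.31 in the wild type, 7 were wild-type DEGs in the same direction, and in 11 the rise was called stronger in *togr1-1*. For the 12 lowest the median was -3.27 in *togr1-1* and -3.69 in the wild type, and 9 were wild-type DEGs in the same direction. Among those 12 the fall was called stronger in *togr1-1* for 3, the opposite for 3, and no difference was called for 6.

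Of 20939 models with at least 20 *togr1-1* reads, 30 had 0 reads at 25 °C and 20 or more at 30 °C. The opposite, 0 reads at 30 °C and 20 or more at 25 °C, was found for 9. In the wild type the 30 models had a median of 11.5 reads at 30 °C and 4 at 25 °C, and 8 of them had at most 3 reads over both wild-type libraries. The 9 models had medians of 4 reads at 30 °C and 17 at 25 °C in the wild type, and each had over 3 reads there. These are counts of models and not of loci, and another model of the locus can have reads. LOC_Os01g01050.1 had 0 reads at 30 °C and 37 at 25 °C in *togr1-1*, whereas LOC_Os01g01050.2 had 34 at 30 °C and 18 at 25 °C. How many were at 0 over the whole locus was not counted.

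Transcripts with reads in the mutant and next to none in the wild type were looked at as a class after the values above had been seen, and are given as a description. There were 115 models with at least 20 reads over both *togr1-1* libraries and at most 3 over both wild-type libraries. Of these, 33 were DEGs higher at 30 °C (28.7%) and 3 were lower (2.61%). Models entered the class by their *togr1-1* reads, and some reached 20 reads through the library at 30 °C alone, so nothing is read from these shares. Of the 33, 11 lay in the runs of neighbouring loci described next. The reads of the 115 models summed to 5910 at 30 °C and 3115 at 25 °C, and 81 of the 115 had more scaled reads at 30 °C.

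The opposite class was smaller. Of 60 models with at least 20 wild-type reads and at most 3 *togr1-1* reads, 10 were wild-type DEGs higher at 30 °C and 20 were lower, under the same limit. Chromosome numbers can be read from the identifiers. Of the 115 models, 22 were on chromosome 4 (19.1%, against 8.75% of all models tested) and 15 on chromosome 11 (13.0%, against 5.66%). On chromosome 4 they included 3 DEGs higher at 30 °C and on chromosome 11 they included 8, of which 7 lay in runs of neighbouring loci.

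Some DEGs followed each other in the order of the identifiers, with loci without a read passed over. With reads summed over the models of a locus, 1334 of 26456 loci were higher at 30 °C (5.04%) and 694 lower (2.62%). In the order of the identifiers, 15 runs of at least 3 neighbouring loci with a read had the same call, 11 higher and 4 lower, with 49 loci in all. Of these runs, 4 held 4 loci. The run of 4 on chromosome 11 had 533 reads at 30 °C and 58 at 25 °C in *togr1-1*, and 0 in either wild-type library. The next run on that chromosome, of 3 loci, had 199 reads at 30 °C and 61 at 25 °C in *togr1-1*, against 0 at 30 °C and 2 at 25 °C in the wild type. On chromosome 3, which also carries TOGR1, a run of 4 had 292 reads at 30 °C and 76 at 25 °C in *togr1-1*, against 9 at 30 °C and 5 at 25 °C in the wild type. In these 3 runs the wild-type libraries thus held few reads or none.

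Other runs had reads in both genotypes. The run of 4 on chromosome 5 had 240 reads at 30 °C and 53 at 25 °C in *togr1-1*, against 62 at 30 °C and 122 at 25 °C in the wild type, and for 3 of its 4 loci the difference between genotypes was called. The run of 4 on chromosome 6 was lower, with 367 reads at 30 °C and 1386 at 25 °C in *togr1-1*, against 1237 at 30 °C and 1221 at 25 °C in the wild type. Most of these wild-type reads came from 1 locus, with 954 at 30 °C and 656 at 25 °C (wild-type log2 ratio 0.57). The other loci of the run were lower in the wild type too (log2 ratios -1.12, -0.90 and -0.72), and 1 was a wild-type DEG. For 2 of the 4 loci the difference between genotypes was called. On chromosome 9 a run of 3 was higher at 30 °C in *togr1-1*, and 2 of its 3 loci were also wild-type DEGs higher at 30 °C, with 2716 reads at 30 °C and 120 at 25 °C in *togr1-1*, against 4633 at 30 °C and 364 at 25 °C in the wild type. Neighbouring loci can be near-identical copies whose reads the counting could have divided, so the loci of a run are not separate observations. Over whole chromosomes the share of models higher at 30 °C lay between 3.41% on chromosome 10 (2.65 to 4.37%) and 5.39% on chromosome 1 (4.77 to 6.08%). The share lower lay between 1.67% on chromosome 8 and 2.83% on chromosome 7.

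The ratio also moved with transcript length, in both genotypes. Over 10 equal groups of the 13862 models with at least 100 *togr1-1* reads, the shortest (156 to 928 bases) had a median log2 ratio of -0.15 in *togr1-1* and -0.13 in the wild type. The longest (3381 to 13178 bases) had 0.26 in *togr1-1* and 0.34 in the wild type. Across these models Spearman's rho between length and ratio was 0.205 in *togr1-1* and 0.212 in the wild type, as a description of models that share their libraries. In the shortest group 7.25% were DEGs higher and 6.68% lower at 30 °C, and in the longest 6.56% were higher and 1.01% lower. With the median of each length group subtracted, 2168 DEGs were found, 1345 higher and 823 lower. The cause of this trend was not tested.

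**Figure D4:**
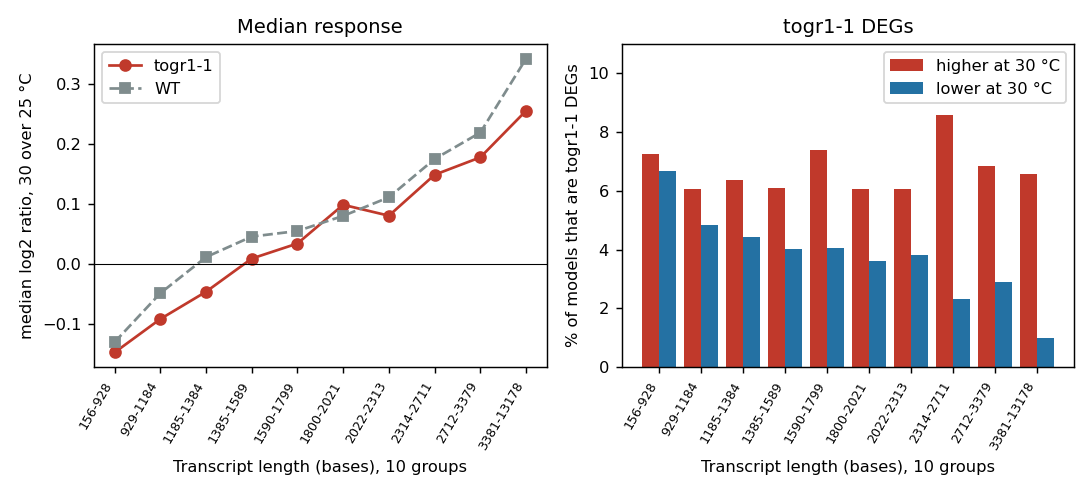
Left, median log2 ratio of 30 over 25 °C (vertical axis) in *togr1-1* (circles) and the wild type (squares) over 10 equal groups of transcript length in bases (horizontal axis). Right, percentage of models in each group that were *togr1-1* DEGs higher or lower at 30 °C; the share of falls is 6.68% in the shortest group and 1.01% in the longest, while the share of rises is 7.25% in the shortest and 6.56% in the longest.

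The models of a locus were also compared with each other. Of 4445 loci with more than 1 model in the *togr1-1* libraries, 567 had a DEG, where 2162 of all 26456 loci had 1 or more. A locus with more models has more chances of a call, so nothing is read from the count of 567. In 493 of the 567 loci a single model was a DEG, and in 70 more than 1 model was a DEG in the same direction. In 4 the models were DEGs in opposite directions. A model that was not called is not thereby shown to respond like its called partner.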

How the data were processed

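Poly(A) RNA of 4 leaf blade libraries was sequenced on the Illumina HiSeq 2000. Reads were counted by the authors on each transcript model, and the deposited counts are raw, beside RPKM values that divide each count by transcript length and library total. The deposited tables also hold the authors' own log2 ratio, p-value and FDR between temperatures, which were not used. The aligner, genome build and annotation release are not given in the sources used here. The counting could divide the reads of near-identical, overlapping or antisense genes.

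Reads at 30 and 25 °C were compared per model, scaled by total reads, with a two-sided exact binomial test and Benjamini-Hochberg adjustment over all models with a read in the pair. The responses of both genotypes were compared with Fisher's exact test. Both tests took 2 times the smaller tail as p. This form was chosen after the other, which sums all outcomes no more likely than the one observed, had also been run. Log2 ratios used a pseudocount of 1 read. Intervals are Clopper-Pearson (ratios) or Wilson (shares) at 95%, and a count of 0 was read as allowing 3. Reads may be copies of 1 molecule, and the Clopper-Pearson intervals cover counting error only. The Wilson intervals treat models as independent, although they share libraries and some share a locus, and cover no spread between plants. A library of about 12139238 reads allowed a call from 14 reads over the pair.

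The loci named are those that the study names, 1 matched in the RefSeq table of assembly ASM3414082v1, and the 2 highest and 2 lowest ratios among DEGs with at least 200 reads. Gene lists prepared for pathways and tissue markers were not used, as the identifiers have no names. The models and rules were chosen with earlier results of these data known. Alternatives were TMM factors, DESeq2 size factors, totals without the 100 most read models, other thresholds and filters, loci in place of models, another pseudocount, and edgeR with an assumed coefficient of variation. Both tests were checked on simulated counts that held counting error alone. That check cannot tell how the tests behave under spread between plants. Tools were Python 3.11.15, numpy 2.4.6, scipy 1.17.1, pandas 2.3.3, matplotlib 3.10.9, R 4.3.3, edgeR 4.0.16 and DESeq2 1.42.0.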

Additional observations from a re-analysis of the deposited data

Results flagged for a closer look

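The temperature response differed between the genotypes by Fisher's exact test in 375 of the 1468 *togr1-1* DEGs that rose and 149 of the 773 that fell, counted in the direction of a stronger response in *togr1-1*. In 17 of the rises and 35 of the falls it ran the other way. Over all models the *togr1-1* ratio was above the wild-type ratio in 2.82% and below it in 1.63%. The DEGs were chosen by their *togr1-1* ratios, which raises the counts of 375 and 149. Among the transcripts named, the difference in log2 ratio (*togr1-1* minus wild type) was 9.60 for LOC_Os01g45914.1 and 7.91 for LOC_Os01g03320.1, both higher at 30 °C in *togr1-1*. The value for LOC_Os01g03320.1 rests on 0 reads at 25 °C and so on the pseudocount, since its *togr1-1* log2 ratio was 8.14 with a pseudocount of 1 read and 5.84 with 5. It was -1.30 for LOC_Os07g48830.1, a model of a GolS2 homologue, with log2 ratios of -0.47 in *togr1-1* and 0.84 in the wild type. The test compares single libraries.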

How the results depend on the processing

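The number of DEGs (2241, with 1468 higher and 773 lower) depended most on the thresholds and on the assumed spread between plants. A 1.5-fold threshold gave 3902 (2398 higher, 1504 lower), a 4-fold threshold 759 (547 higher, 212 lower) and an adjusted p of at most 0.05 gave 3919 (2425 higher, 1494 lower). The edgeR exact test gave 286 (221 higher, 65 lower; 77.3% higher) at an assumed coefficient of variation of 0.2 and 11 (10 higher, 1 lower; 90.9% higher) at 0.4, with 65.5% higher in the main result. Under TMM factors, DESeq2 size factors, totals without the 100 most read models, a minimum of 20 reads, loci in place of models, and the alternatives chosen after seeing the data (scaling within length groups, no models with at most 3 wild-type reads, the other two-sided p), each count was within 1.5 times of the main one. TMM factors gave 2201 DEGs with 58.9% higher, and shifted the median log2 ratio by -0.07. The other two-sided p gave 2294. The 1568 differences between the genotypes became 3005 at an adjusted p of at most 0.05, 606 at 4-fold and 1622 with the other two-sided p. Of 178 values of 13 named models under the alternatives, 168 kept direction and call, 7 lost the call, and 3 changed sign. Many of the 168 were fixed in advance. Other thresholds, edgeR and the other two-sided p reused the main log2 ratio, and the other pseudocount reused the main call. Models that were not DEGs had no call to lose. The 168 are thus no measure of how firm the calls are. The sign changed only where loci replaced models, to -0.18 for LOC_Os07g48830.2 and -1.003 for LOC_Os07g49400.2 and LOC_Os07g49400.4, whose few reads are outweighed by another model of the locus. LOC_Os03g20120.1 and LOC_Os07g49400.3 lost their calls at 4-fold and under both edgeR settings, and LOC_Os05g30500.1 under edgeR at 0.4. No paired analysis was possible because each group has 1 library, and for the same reason no library could be left out. Alternatives for gene lists were not run, as the lists were not used. Models with under 14 reads over the pair could not be called at this depth.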
